A study of Rattus norvegicus with 28 samples.

Results

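Among 28 RNA-seq libraries of rat striatum, 5 held more than 20 RPM (reads per 1000000 assigned to genes) of Slc17a7, the gene of a vesicular glutamate transporter known from cortical neurons, and these 5 are described here against the other 23. They were chosen by that level alone, from RPM computed as the deposited RPKM times gene length in kilobases. All 28 libraries came from male rats in 4 groups that the labels define by genotype and treatment: 8 wt naive, 6 wt with sciatic nerve crush, 8 naive rats of the genotype named deltaETorA (TG here) and 6 TG with sciatic nerve crush. The crush was made on the right side, and each library, naive ones included, is labelled with a time of 12 weeks from injury. The labels give neither the rats' age nor the promoter of the transgene. Each library has a number of its own but is not said to be a separate animal, so a p-value reflects only how far these libraries spread, which may be technical. The TG rats carry a mutant human TOR1A, a gene for an ATPase of the endoplasmic reticulum that is mutated in DYT-TOR1A dystonia.

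Glutamate is loaded into synaptic vesicles by 3 related transporters, of which Slc17a7 (VGLUT1) is the one used by most cortical and hippocampal pyramidal neurons, Slc17a6 (VGLUT2) the one typical of thalamic neurons, and Slc17a8 (VGLUT3) one found in some cholinergic and other neurons. The striatum receives dense glutamatergic input from the cortex and the thalamus, but the cell bodies of those neurons, where most of their mRNA lies, are outside it. Its own principal cells are GABAergic spiny projection neurons. They express Ppp1r1b (DARPP-32) and either the dopamine receptor Drd1 or Drd2, and both receptors and Ppp1r1b were read at over 100 RPM in each of the 28 libraries.

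Slc17a7 (chromosome 1, 101161265 to 101172292, Rnor_6.0, plus strand) stood at 24.0, 36.7 and 55.2 RPM in the wt naive libraries 197, 199 and 202, at 55.8 RPM in TG naive library 190 and at 63.3 RPM in TG crush library 220. The other 23 libraries lay between 2.11 and 10.6 RPM with a median of 5.47. No library lay between 10.6 RPM (TG crush 219, the highest of the 23) and 24.0 RPM (wt naive 197, the lowest of the 5), and the next below was TG naive 192 at 9.37 RPM. The 5 therefore comprised 3 of 8 wt naive, 0 of 6 wt crush, 1 of 8 TG naive and 1 of 6 TG crush libraries. On average they held 47.0 ± 16.2 RPM (SD, n = 5) against 5.07 ± 2.41 (SD, n = 23), a ratio of 9.27, which describes the choice and is not tested. The lowest of the 5 had 776 Slc17a7 reads and the highest of the 23 had 377, a gap far larger than counting error.

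**Figure D1:**
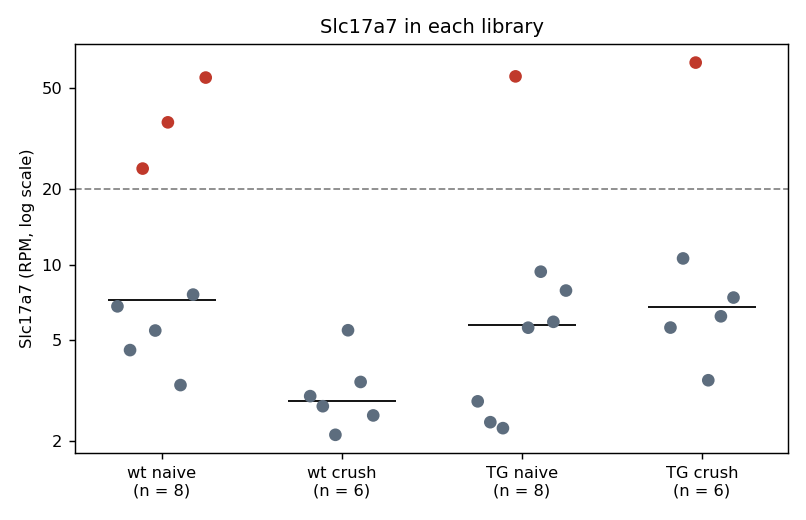
Slc17a7 level of each library (vertical axis, RPM, log scale) by design group (horizontal axis). Points are libraries, red above the dashed line at 20 RPM, and horizontal bars are group medians. The 5 red points lie between 24.0 and 63.3 RPM, and the 23 grey points between 2.11 and 10.6 RPM.

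The 5 libraries did not stand apart in depth, mitochondrial share or genotype marker. They held 29751404 to 35253674 assigned reads against 29151455 to 38407359 in the 23, and 11.4% to 14.7% of their reads came from the mitochondrial genome against 10.4% to 18.5%. In the shallowest library 0 reads leave room for up to 0.103 RPM, counting error alone considered. The human TOR1A transcript matched the labelled genotype in all 28, at 102 to 144 RPM in TG and at most 0.972 RPM in wt libraries. The labels mention 2 sequencing runs without tying libraries to them, so a run cannot be told apart from the other differences between libraries.

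Differences between the 5 and the 23 are given as log2 differences of RPM plus a pseudocount of 0.5, within design groups, with the moderated standard error (SE) from limma and no p, because the libraries were chosen on their own values. Of 17696 genes with a mean of at least 0.5 RPM, 44 were higher by at least 1 on this scale (0.249%) and 10 were lower by at least as much (0.0565%). Without regard to size, 43 genes, Slc17a7 among them, were higher in each of the 5 than in each of the 23 (0.243%), and 5 were lower in each of the 5 (0.0283%). Leaving out 1 of the 5 moved the 43 to 77 without wt naive 202, to 71 without wt naive 197 and to 71 without TG crush 220, while the 10 fell to 5 without wt naive 199 and became 19 without TG crush 220. The number of genes apart can only stay or rise when 1 of the 5 is left out, because genes already apart stay apart. The median over all tested genes other than Slc17a7 was 0.03, and 61.5% of them differed upward, the share against which the counts of list members below are to be read. In tissue RNA, more cells of a type and more RNA per cell cannot be told apart.

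Several transcription factors of pallial excitatory neurons, the neurons of cortex, hippocampus and claustrum, were high in the same libraries. Neurod6, a basic helix-loop-helix factor of postmitotic pyramidal neurons, had 1.89, 2.82 and 3.76 RPM in wt naive 197, 199 and 202, 4.13 in TG naive 190 and 4.48 in TG crush 220. In the 23 it ranged from 0.0916 to 0.953 with a median of 0.417, so the sets do not overlap, and its log2 difference was 2.0 (SE 0.16). Neurod2, its relative, had 1.39, 0.881, 1.97, 2.02 and 2.16 RPM in the 5, in the same order, against 0 to 0.561 (median 0.235), a log2 difference of 1.52 (SE 0.14). Emx1, a homeobox gene of the developing and adult pallium, had too low a mean for the fit but showed the same order, with 0.526 to 1.22 RPM in the 5 and 0 to 0.328 in the 23. Tbr1, a T-box factor of deep-layer cortical neurons, had 0.743, 1.76, 3.76, 4.50 and 2.84 RPM in the 5 against 0.146 to 0.940 (median 0.438) in the 23. For Tbr1 the sets overlap through wt naive 197, whose level 3 of the 23 reached or passed.

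Other factors of the same list gave a weaker or no separation. Bhlhe22 differed by 0.57 (SE 0.23) and the corticofugal neuron factor Fezf2 by 0.34 (SE 0.11), and Lhx2 by 0.09 (SE 0.10) and Emx2 by -0.20 (SE 0.08), each with overlap. Neurod1 and Eomes had no read in any library. Neurod2, Neurod6 and Tbr1 reached the minimum mean only through the 5 libraries, so no count or median is given in the text for this list.

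Neurod2 and Neurod6 bind E-boxes, and a form their family is known to prefer reads CAGATG. The 250 bases before the RefSeq start of Slc17a7 and of these 2 factors are shown, with that motif, searched on both strands, in capitals. The reverse strand reads CATCTG. They are 5' to 3' in the gene's direction, build GRCr8: chr1:104785955-104786204 on the plus strand for Slc17a7, chr10:83824278-83824527 on the minus strand for Neurod2 and chr4:86180156-86180405 on the minus strand for Neurod6.
Slc17a7: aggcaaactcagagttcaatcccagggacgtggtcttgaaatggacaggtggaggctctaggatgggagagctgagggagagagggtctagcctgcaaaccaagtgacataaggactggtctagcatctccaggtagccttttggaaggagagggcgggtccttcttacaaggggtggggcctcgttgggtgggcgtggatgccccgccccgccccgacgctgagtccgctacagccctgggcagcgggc
Neurod2: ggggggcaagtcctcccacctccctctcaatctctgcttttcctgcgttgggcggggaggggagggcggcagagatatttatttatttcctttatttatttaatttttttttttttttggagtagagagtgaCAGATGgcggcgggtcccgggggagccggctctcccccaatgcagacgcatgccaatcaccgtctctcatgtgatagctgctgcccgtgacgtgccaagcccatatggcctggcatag
Neurod6: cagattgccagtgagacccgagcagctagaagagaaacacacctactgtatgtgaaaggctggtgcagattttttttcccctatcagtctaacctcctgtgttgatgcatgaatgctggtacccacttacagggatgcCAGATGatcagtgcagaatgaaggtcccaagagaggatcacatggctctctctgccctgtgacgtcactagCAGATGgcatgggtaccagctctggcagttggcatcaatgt
Counted back from the start, Neurod2 held 1 match at -118 and Neurod6 held 2, at -112 and -41. Slc17a7 held 0 matches in this window. Over 33469 RefSeq promoters of the same length, 4673 (14.0%) held the motif on either strand. A match describes the letters only, and no binding was measured.

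Several genes of synapses and axons were apart as well. Slc30a3 (ZnT3), the transporter that loads zinc into glutamatergic vesicles, had 3.41, 4.61 and 8.02 RPM in wt naive 197, 199 and 202, 12.6 in TG naive 190 and 9.76 in TG crush 220. In the 23 it lay between 0.111 and 2.08 with a median of 0.926, which gives a log2 difference of 2.49 (SE 0.27) and a ratio of means of 8.59. Nrn1 (neuritin), a membrane-anchored protein of excitatory neurons, had 4.12, 3.99, 8.02, 8.23 and 8.59 RPM in the 5 against 1.49 to 3.63 (median 2.12), a log2 difference of 1.37 (SE 0.16). Both genes were lowest of the 5 in wt naive 197 and 199, the libraries that were also lowest in Slc17a7. Nptxr, the neuronal pentraxin receptor, had 180, 209, 227, 255 and 268 RPM against 92.1 to 139 (median 114), a log2 difference of 1.01 (SE 0.09).

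The receptors and channels of this set include Grm2, a presynaptic inhibitory glutamate receptor, with 4.30 to 7.46 RPM in the 5 and 1.41 to 3.73 in the 23 (log2 difference 1.22, SE 0.15). Kcnj6, an inwardly rectifying potassium channel subunit, had 6.90 to 13.7 against 2.80 to 6.11 RPM (1.20, SE 0.15). Rtn4r, the Nogo receptor, had 3.47 to 7.80 against 0.656 to 2.48 RPM (1.59, SE 0.17). C1ql3, a secreted synaptic C1q-like protein, had 3.96 to 6.50 against 0.647 to 2.78 RPM (1.72, SE 0.20). None of these 4 overlapped between the sets.

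Outside the synapse, Cyp26b1, which degrades retinoic acid, differed by 1.78 (SE 0.28), from 17.9 to 33.8 RPM in the 5 and from 2.64 to 15.3 RPM in the 23. Cadps2, a factor of dense-core vesicle release, differed by 1.06 (SE 0.16), the calcium-binding protein Necab3 by 1.0 (SE 0.15), Ipcef1 by 0.93 (SE 0.13) and Fam81a by 0.85 (SE 0.12). Necab3 shows how narrow such a gap can be: its lowest of the 5 was 4.94 RPM and its highest of the 23 was 4.90 RPM. For Necab3, Rtn4r and C1ql3, as for Slc17a7 itself, the library highest among the 23 was TG naive 192 or TG crush 219.

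**Figure D2:**
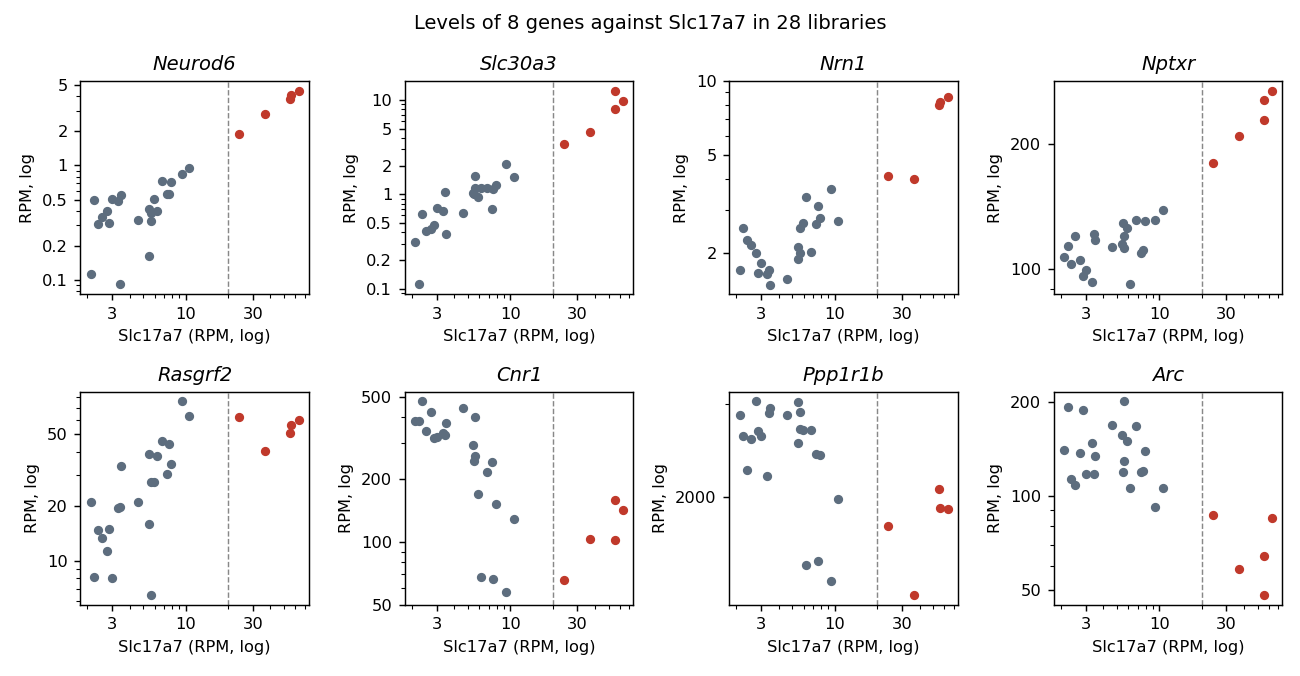
Level of 8 genes (vertical axes, RPM, log scale) against Slc17a7 (horizontal axes, RPM, log scale) in 28 libraries, with the 5 above 20 RPM in red. Neurod6, Slc30a3, Nrn1 and Nptxr are higher in each red point than in each grey one and Arc is lower, whereas Rasgrf2, Cnr1 and Ppp1r1b overlap with the grey points nearest the dashed line.

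The label cortical was set against lists of genes for cortical excitatory neurons and layers, which gave a mixed picture. Of 18 genes typical of pallial excitatory neurons, Slc17a7 was left out and Dkkl1 had no read in any library. Of the other 16, 10 differed upward and 6 downward, close to the 61.5% upward over all tested genes, with a median of 0.13. In this list 3 genes (Nrn1, Nptxr and Olfm1) were higher in each of the 5, as were 0.243% of all tested genes. The list's summed level was 3527 to 4367 RPM in the 5 and 2863 to 4620 in the 23. Camk2a, a kinase abundant in excitatory and spiny neurons, had 974, 781, 976, 984 and 953 RPM in the 5 against 687 to 1002 (median 858), a log2 difference of 0.13 (SE 0.08). Sv2b, a vesicle protein of excitatory terminals, differed by -0.10 (SE 0.23) and the calmodulin-binding Nrgn by -0.41 (SE 0.20). Vsnl1, a neuronal calcium sensor, differed by 0.996 (SE 0.21), with 4 of the 23 at or above the lowest of the 5. Several of these genes are also expressed by striatal neurons.

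Layer genes did not move as a block. In the upper-layer list, 8 of 10 differed upward with a median of 0.16 and 0 were apart. Rasgrf2, an exchange factor of upper-layer neurons, had 62.6, 40.6, 50.7, 56.1 and 60.0 RPM in the 5 and 6.47 to 76.1 (median 21.3) in the 23, where TG naive 192 held 76.1 and TG crush 219 held 63.3. Cux2, a homeobox gene of upper layers, showed the same arrangement, with 41.5 to 52.5 RPM in the 5 and 55.2 RPM in TG naive 192, the single library of the 23 at or above the lowest of the 5. In the layer 5 list 5 of 8 differed upward, again close to that share, with a median of 0.01, and Pou3f1 and Deptor were lower by 0.76 (SE 0.28) and 0.40 (SE 0.17).

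Of the deep-layer and subplate genes, Ntsr1, a neurotensin receptor of layer 6 neurons, had 4.89, 7.93, 3.32, 3.53 and 2.50 RPM in the 5 against 0.471 to 7.01 (median 1.23), and Rprm differed by 0.98 (SE 0.23). Nxph4, a subplate marker, went the other way, with 6.87, 7.81, 12.7, 10.6 and 11.7 RPM against 4.96 to 63.8 (median 26.4), a log2 difference of -1.05 (SE 0.41). Ccn2 was not matched in the table. The claustrum and insula list had 5 of 7 genes upward with a median of 0.12. Of them 1, Ntng2 (netrin-G2), was apart at 15.4 to 19.8 against 7.65 to 15.0 RPM, where 0.243% of all tested genes were higher in each of the 5. Nr4a2, a nuclear receptor expressed in the claustrum, differed by 0.68 (SE 0.13), with 1 of the 23 at or above the lowest of the 5. Because of this mixed picture the libraries are called here by their Slc17a7 level and not as cortical.

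Markers of regions next to the striatum overlapped between the sets, although the thalamic and pallidal medians lie above those of the excitatory neuron, upper-layer and layer 5 lists. The layer 6 and subplate list had a median of 0.29, above the thalamic and below the pallidal one. That median covers its 8 members that reached the minimum mean in the 23 alone, of which 4 differed upward. These differences between lists were not tested. In the thalamic list 7 of 9 genes differed upward with a median of 0.27, and the list's sum was 63.5 to 78.5 RPM in the 5 and 44.9 to 79.8 in the 23. Slc17a6 had 1.86, 3.23, 1.13, 1.92 and 2.33 RPM in the 5 against 0.104 to 3.41 (median 0.556), and its highest value was in TG naive 192. In the basal forebrain and pallidal list 6 of 6 differed upward with a median of 0.36, Gbx1 by 0.61 (SE 0.22) and Lhx8 by 0.45 (SE 0.18). In the hippocampal list 4 of 5 differed upward with a median of 0.08. Wfs1, an endoplasmic reticulum protein of pyramidal neurons, differed by 0.86 (SE 0.25), at 259 to 327 RPM against 96.7 to 369, while the dentate gyrus marker Dsp differed by 0.02 (SE 0.14). The part of these other regions in the result was not tested.

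Interneuron genes leaned upward, with 2 members clearly downward. Of the 17 that reached the minimum mean in the 23 libraries alone, 15 differed upward, with a median of 0.17. Calb2 (calretinin) had 6.78, 23.4, 4.61, 6.42 and 4.14 RPM in the 5 against 1.43 to 6.70 (median 2.47), a log2 difference of 1.19 (SE 0.29) that was 0.85 without wt naive 199. With the selection set at 40 RPM, which removes wt naive 197 and 199 from the high set, it was 0.56. Vip, a peptide of cortical interneurons, differed by 1.16 (SE 0.27) and Crh, another interneuron peptide, by 0.94 (SE 0.33). Crh is not among the 17, because it reached the minimum mean only through the 5. Its mean was 1.37 ± 1.37 RPM (SD, n = 5) in the 5 and 0.393 RPM in the 23. Cnr1, the cannabinoid receptor of many interneurons and of spiny neurons, was at 65.7, 103, 159, 103 and 143 RPM in the 5 against 57.5 to 475 (median 317), a log2 difference of -0.98 (SE 0.41). Reln, a secreted matrix protein of interneurons, differed by -0.72 (SE 0.31). The low end of Cnr1 in the 23 was TG naive 192.

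Of the glutamate handling genes, 7 of 10 differed upward with a median of 0.14, and 0 were apart. Slc17a8 differed by -0.28 (SE 0.23) and overlapped, as did Slc17a6, while Slc17a7 was used to choose the libraries. Among glutamate receptor subunits, 14 of 21 differed upward, near the 61.5% of all tested genes, with a median of 0.06, and Grm2 was the 1 member apart. Grm8, another presynaptic receptor, differed by 0.68 (SE 0.23) with 20.6 RPM in TG crush 219, the highest of all 28 libraries.

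Spiny projection neuron genes leaned low in the 5 libraries. Of 18 genes of this list, 0 differed upward and 18 downward, with a median of -0.36, where the median of all genes was 0.03, and 0 were apart. Their sum was 8545 to 13373 RPM in the 5 and 9463 to 18413 (median 16617) in the 23. Ppp1r1b had 1756, 1299.9, 2069, 1908 and 1899 RPM in the 5 against 1383 to 3037 (median 2611), a log2 difference of -0.40 (SE 0.16). Scn4b, a sodium channel subunit, had 755, 673, 1154, 923 and 1007 RPM against 672 to 1969 (median 1557), a difference of -0.59 (SE 0.21). Actn2 and Rasd2, an actinin and a small GTPase of spiny neurons, differed by -0.58 (SE 0.21) and -0.48 (SE 0.15). Each of the 5 was below the median of the 23 for Ppp1r1b and Scn4b. Of the 23, 4 for Ppp1r1b and 5 for Scn4b were at or below the highest of the 5.

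The split into direct and indirect pathway genes showed no clear preference. Tac1, the substance P precursor of direct pathway neurons, differed by -0.61 (SE 0.23) and Drd1 by -0.37 (SE 0.19), while Pdyn, the dynorphin precursor, differed by 0.06 (SE 0.12). The direct list was downward in 6 of 8 with a median of -0.20. Drd2 differed by -0.34 (SE 0.12), the adenosine receptor gene Adora2a by -0.27 (SE 0.11) and the enkephalin precursor Penk by -0.15 (SE 0.12), and the indirect list was downward in 4 of 6 with a median of -0.21. The difference between the lists was not tested. Cholinergic genes were upward in 4 of 6 with a median of 0.18.

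**Figure D3:**
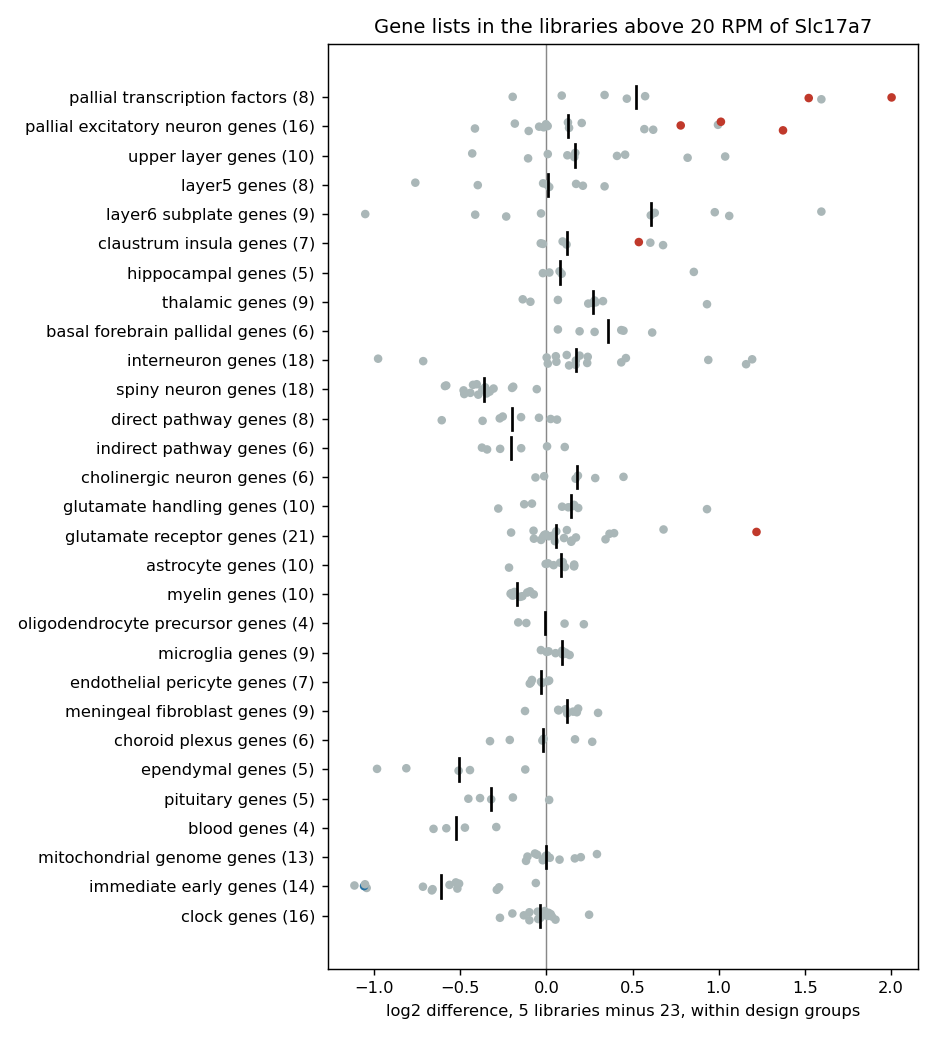
Log2 difference between the 5 and the 23 libraries within design groups (horizontal axis) for the members of each gene list (rows, number of members with a mean of at least 0.5 RPM in brackets). Red points are genes higher in each of the 5, blue points genes lower in each of the 5 and grey points genes that overlap. Black bars are list medians over all points drawn. They include members that reached the minimum mean only through the 5, such as Neurod2, Neurod6 and Tbr1. The 18 spiny neuron genes and the 14 immediate early genes all lie left of 0.

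Immediate early genes, which neurons transcribe within minutes of activity, were low in the 5 libraries. Of 14 members, 14 differed downward with a median of -0.61, and the list's sum was 326 to 501 RPM in the 5 against 424 to 830 in the 23. Arc, a synaptic plasticity protein, had 87.2, 58.6 and 48.3 RPM in wt naive 197, 199 and 202, 64.4 in TG naive 190 and 85.3 in TG crush 220, against 92.0 to 200.2 (median 134). It was lower in each of the 5 than in each of the 23, with a log2 difference of -1.06 (SE 0.15). The activity-dependent factor Npas4 differed by -1.11 (SE 0.21), the orphan receptor Nr4a1 by -1.05 (SE 0.20) and the zinc finger factor Egr2 by -1.04 (SE 0.26), each with overlap. Npas4 had 3.86 to 7.43 RPM in the 5 and 6.21 to 18.1 in the 23.

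The other 4 genes lower in each of the 5 showed smaller differences. Ppp1r16b, a regulatory subunit of protein phosphatase 1, had 584 to 654 against 656 to 928 RPM (log2 difference -0.32, SE 0.05). Cdr2 had 26.6 to 32.9 against 33.0 to 49.9 RPM (-0.48, SE 0.07). The inhibitory SMAD Smad7 had 36.1 to 42.3 against 42.7 to 56.5 RPM (-0.25, SE 0.06), and the phosphatase Ctdsp2 had 101 to 109 against 112 to 138 RPM (-0.23, SE 0.04). For Cdr2 and Ppp1r16b the lowest of the 23 was TG naive 192 and TG crush 219, in that order.

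Glial and non-neural lists had no gene apart, and neither had the spiny neuron list. The ependymal and blood medians lay below the spiny neuron median of -0.36. Myelin genes were downward in 10 of 10 with a median of -0.17 and a sum of 19321 to 25471 RPM against 18034 to 39111, and Mbp differed by -0.15 (SE 0.17). Astrocyte genes were upward in 8 of 10 with a median of 0.09, although Gfap, their intermediate filament, differed by -0.22 (SE 0.20). Microglial genes had a median of 0.09 and endothelial genes one of -0.03. Ependymal genes, which mark the ventricle lining, were downward in 5 of 5 with a median of -0.51, with sums of 22.3 to 36.7 against 22.1 to 71.1 RPM. Blood genes were downward in 4 of 4 with a median of -0.53, at 12.3 to 68.2 against 15.5 to 178 RPM. Pituitary genes summed to 3.87 to 7.13 RPM in the 5 and to 3.01 to 184 in the 23, so the highest sums lay outside the 5. Their part in the result was not tested.

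The level of Slc17a7 by design group is given without a test, because the same values chose the 5 libraries, which lie unevenly over the groups. Wt naive libraries averaged 17.96 ± 19.1 RPM (SD, n = 8), wt crush 3.21 ± 1.20 (SD, n = 6), TG naive 11.5 ± 18.1 (SD, n = 8) and TG crush 16.1 ± 23.2 (SD, n = 6). On the log2 scale TG lay above wt by 1.46 in crush rats, and the naive genotype difference was -0.77. Crush against naive was -1.71 in wt and 0.52 in TG rats. In the 23 libraries wt crush averaged 3.21 RPM and TG crush 6.66 ± 2.61 (SD, n = 5), with libraries from 2.11 to 5.48 and from 3.47 to 10.6 RPM that overlap.

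The number of genes called between design groups depended on whether the 5 libraries were in the fit. In wt rats, 28 of 17696 genes passed limma at an adjusted p under 0.05 between crush and naive (0.158%), 7 higher (0.0396%) and 21 lower (0.119%). Without the 5 libraries, of which 3 are wt naive, 7 passed (0.0396%), 3 higher (0.0170%) and 4 lower (0.0226%), with 6 of the 7 among the 28. With all 28 libraries and the 5 marked by a term in the model, 15 passed (0.0848%), 13 of them shared. The genes with an unadjusted p under 0.05 fell from 3746 to 2026 without the 5 libraries. The fit without them also rests on fewer samples, and the part of that in the count was not tested. The count also moved with single libraries: it became 517 without wt naive 196, 133 without TG crush 223 and 57 without wt naive 198. It was 18, 12, 12, 13, 16, 14, 17 and 12 without wt naive 195, 197 and 201 and wt crush 205, 206, 207, 209 and 210, in that order. Of the wt naive libraries in the 5 beside 197, leaving out 199 gave 22 and leaving out 202 gave 33.

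Of the named calls lost in wt rats, Kif21b, a kinesin motor, changed in size: its log2 crush difference was -0.72 (SE 0.15, adjusted p = 0.0407) with the 28 and -0.58 (limma adjusted p = 0.285) without the 5, in which it was higher by 0.38. Slc13a3, a dicarboxylate transporter, went from -1.11 (SE 0.19, limma adjusted p = 0.00797) to -1.04 (adjusted p = 0.0502), and the metalloproteinase Mmp14 from -0.59 (SE 0.11, adjusted p = 0.0215) to -0.57 (adjusted p = 0.0502). Barx2, a homeobox gene, moved from 1.12 (SE 0.20) to 1.10 (limma adjusted p = 0.0889) and Klhdc7a from -0.67 (SE 0.10) to -0.63 (adjusted p = 0.0502). For these 4 the size of the difference hardly changed while the call was lost. The clock genes Per2 and Dbp were lost at 0.63 (limma adjusted p = 0.156) and 0.49 (adjusted p = 0.0774), and Nr1d2, Ciart and Bhlhe41 still passed. Of 16 clock genes, 5 passed higher with all 28, where 0.0396% of all tested genes did. Without the 5 libraries 3 of them passed higher, where 0.017% of all tested genes did.

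In TG rats, 580 genes passed between crush and naive (3.28%), 201 higher (1.14%) and 379 lower (2.14%). Without the 5 libraries, which removes TG naive 190 and TG crush 220, 181 passed (1.02%), 66 higher (0.373%) and 115 lower (0.650%), and 177 of these were among the 580. With the 5 marked in the model 603 passed (3.41%), 559 of them shared. Leaving out single libraries gave 235 without TG crush 220 and 361 without TG naive 190, and also 237 without TG crush 222, 329 without TG crush 214, 356, 310 and 288 without TG naive 189, 191 and 193, 1247 without TG crush 223, 1129 without TG crush 226 and 1102 without TG naive 188. Leaving out a library outside the 5 thus moved the count as well. Under median-of-ratios scaling the split was 288 higher and 320 lower and under quantile normalization 292 and 306.

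Lost in TG rats without the 5 were, among the named genes, the monooxygenase Fmo2 (log2 difference 0.83 with and 0.77 without, limma adjusted p = 0.0716), the antiviral membrane protein Bst2 (-0.61 and -0.53, adjusted p = 0.110) and Arhgef15, an endothelial exchange factor (-0.58 and -0.52, adjusted p = 0.127). RT1-O2-ps, Rpe65 and Rab11fip1 were lost as well. Gained were Aim1 (-0.68 and -0.81, limma adjusted p = 0.0450) and the metallothionein genes Mt2A (-0.43 and -0.54, adjusted p = 0.0171) and Mt1m (-0.43 and -0.54, adjusted p = 0.0380). Of the clock genes 12 passed higher and 2 lower with all 28, and 9 and 2 without the 5. Over all tested genes the shares higher and lower were 1.14% and 2.14% with all 28, and 0.373% and 0.65% without the 5. The 3 clock genes lost were Per1 (0.39, adjusted p = 0.0933), Hlf (0.43, adjusted p = 0.0964) and Cry2 (0.21, adjusted p = 0.0716).

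Between genotypes few genes passed either way. In naive rats 6 passed with all 28 (0.0339%) and 2 without the 5 (0.0113%), the human transcript and the clock repressor Nr1d2. With the 5 marked in the model 4 passed (0.0226%). The calls lost were Nr1d1 (log2 difference -0.46 with and -0.48 without, limma adjusted p = 0.236), the zinc finger gene Zfp180 (0.30 and 0.28, adjusted p = 0.167), RGD1305178 (0.23 and 0.21, adjusted p = 0.619) and Mettl24 (-0.47 and -0.44, adjusted p = 0.619). The count of 6 became 2 without wt naive 196, 200 or 202 or TG naive 190, and 3 without wt naive 198 or TG naive 192. In crush rats the human transcript passed with all 28 (0.00565%), and LOC102555474 passed beside it without the 5 (log2 difference 1.59, limma adjusted p = 0.0264). That count was 6 without TG crush 214, 3 without wt naive 197 and 2 without wt naive 199 or TG naive 189. Nr1d2 was the 1 gene whose crush effect differed between genotypes, by 0.48 (SE 0.07, limma adjusted p = 0.00763) with all 28 and by 0.46 (adjusted p = 0.249) without the 5. In the latter fit 0 genes passed that test, with 691 at an unadjusted p under 0.05, and limma-voom on the 28 libraries called 1. With all other libraries kept, that test called 5 without TG crush 214, 3 without TG naive 188 or TG crush 223 and 2 without TG naive 187 or TG crush 219.

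**Figure D4:**
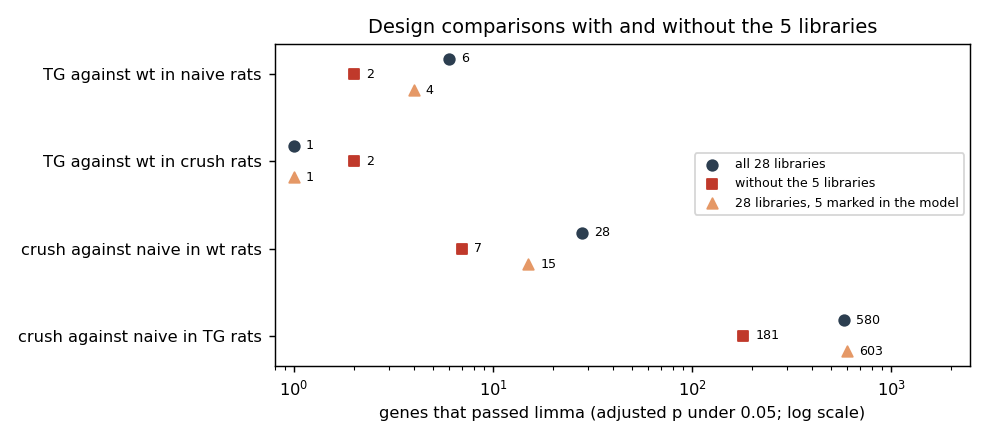
Number of genes that passed limma at an adjusted p under 0.05 (horizontal axis, log scale) in 4 design comparisons (rows), with all 28 libraries (circles), without the 5 (squares) and with the 5 marked in the model (triangles). Crush against naive in TG rats falls from 580 to 181 genes without the 5, and in wt rats from 28 to 7.

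For the 48 genes apart between the 5 and the 23, calls in the design comparisons are given as counts only. In limma's fit to all 28 libraries, 0 of the 48 passed in any of the 5 comparisons, where 3.28% of all tested genes passed in the largest, and limma-voom also called 0. At an unadjusted p under 0.05, 16 of the 48 differed between wt crush and wt naive libraries, as did 21.2% of all tested genes. The 48, Slc17a7 among them, were chosen for being apart in the 5, of which 3 are wt naive. Nothing is therefore read from the 0 or from the 16. In the other comparisons with all 28, between 1 and 6 of the 48 had such a p.

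Within the 23 libraries at or below 20 RPM, the level of Slc17a7 was compared with 12 genes fixed for this purpose, on log2 values centred by design group, with permutation p-values within groups adjusted over the 12. The rule used the same Slc17a7 values to set these 23 apart, and the 12 genes were fixed with earlier results of these data known. The p-values therefore describe the 23 libraries alone and are not support for the differences between the sets. Nrn1 rose with Slc17a7 (r = 0.66, permutation p = 0.00097, adjusted 0.00582, rho = 0.70, permutation p = 0.00034, n = 23). Tbr1 had r = 0.65 (permutation p = 0.00678, adjusted 0.0203, rho = 0.69, permutation p = 0.00255). Neurod2 had r = 0.53 (permutation p = 0.0125, adjusted 0.0250, rho = 0.56, permutation p = 0.0113) and Neurod6 r = 0.51 (permutation p = 0.0180, adjusted 0.0308, rho = 0.53, permutation p = 0.0155). Neurod2, Neurod6 and Tbr1 are read here at under 1 RPM, so counting error takes a share of their spread.

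Slc17a6, the thalamic transporter, also rose with Slc17a7 (r = 0.71, permutation p = 0.00017, adjusted 0.00204, rho = 0.69, permutation p = 0.00141). Gfap had r = 0.55 (permutation p = 0.0113, adjusted 0.0250, rho = 0.59, permutation p = 0.00821). Sv2b fell with Slc17a7 (r = -0.63, permutation p = 0.00567, adjusted 0.0203, rho = -0.72, permutation p = 0.00101), although it is listed with excitatory neuron genes. Drd2 had r = -0.46 (permutation p = 0.0312, adjusted 0.0416, rho = -0.44, permutation p = 0.0344, adjusted 0.0516). Ppp1r1b (r = -0.43, permutation p = 0.0637, adjusted 0.0695, rho = -0.34, permutation p = 0.121), Mbp (r = 0.43, permutation p = 0.0457, adjusted 0.0548, rho = 0.40, permutation p = 0.0717) and Camk2a (r = 0.22, permutation p = 0.382, rho = 0.28, permutation p = 0.249) did not pass.

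Without the 2 libraries farthest from the median of Slc17a7, r was 0.71 for Slc17a6, 0.71 for Nrn1, 0.60 for Tbr1, -0.63 for Sv2b, 0.51 for Gfap, 0.53 for Neurod6, 0.44 for Neurod2 and -0.44 for Drd2. Within the 2 groups with at least 6 such libraries, 7 TG naive and 6 wt crush, r was 0.73 and 0.77 for Slc17a6, -0.89 and -0.66 for Sv2b and 0.73 and 0.34 for Nrn1. Tbr1 had 0.85 and 0.47. The sign differed between these groups for Gfap, at 0.87 in TG naive and -0.47 in wt crush, for Mbp, at 0.78 and -0.66, and for Drd2, at -0.68 and 0.12, so the pooled values of these 3 genes did not hold within both groups. The 5 wt naive and 5 TG crush libraries were too few for a value of their own.

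**Figure D5:**
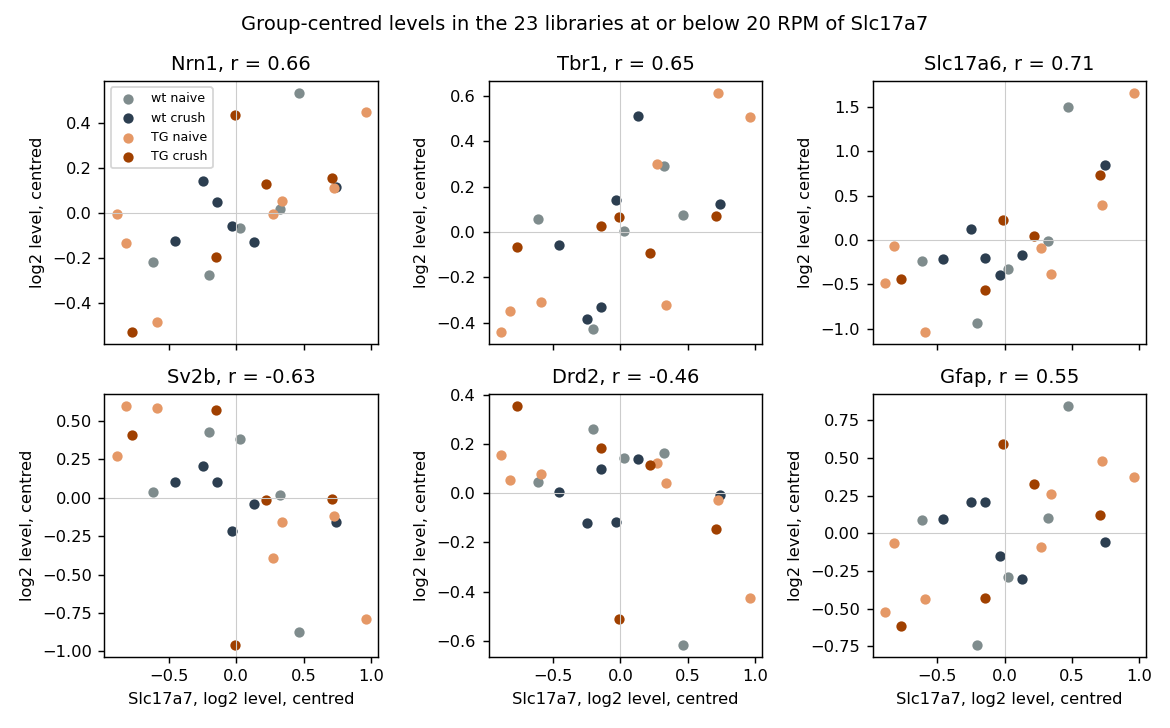
Group-centred log2 level of 6 genes (vertical axes) against that of Slc17a7 (horizontal axes) in the 23 libraries at or below 20 RPM, coloured by design group. Over the pooled 23, Nrn1, Tbr1, Slc17a6 and Gfap rise with Slc17a7 and Sv2b and Drd2 fall. Within TG naive and wt crush libraries the sign differs for Gfap and Drd2.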

How the data were processed

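RNA of 28 striatal samples was sequenced in single-end reads of 75 nt from a stranded mRNA kit, per the labels' protocols. The submitters' processing notes name STAR 2.6.1a, Rnor_6.0, featureCounts, Subread 1.6.3 and DESeq2 1.22.2. No source used here states how strand was counted, which leaves genes overlapping on opposite strands uncertain. RPKM for 39538 genes were deposited in 1 table with decimal commas, recorded as unit other because the unit check could not read them. RPKM times the gene span with introns, in kilobases, gave RPM that sum to the same total per library, and whole reads within 0.02 for 100% of values.

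limma 3.58.1 in R 4.3.3 was fitted to log2(RPM + 0.5) for genes with a mean RPM of at least 0.5, on the 4 groups with an indicator of the 5 libraries (differences with SE, no p) and on the 4 groups alone for the design comparisons, with variances that follow the mean and Benjamini-Hochberg adjustment over all genes tested. Correlations were tested with 100000 permutations within groups (scipy 1.17.1, Python 3.11.15). A planned permutation test of Slc17a7 between groups is not given, because the same values chose the 5 libraries. Simulated counts with known changes were put through the indicator fit and the fit of crush against naive in TG rats. They were drawn independently for each gene and library, so they do not bear on how calls moved with single libraries. Named were Slc17a7, up to 4 list members of largest difference, the 12 genes of largest difference in each direction with a mean RPM of at least 2 among those that did not overlap, up to 6 calls lost and 6 gained per design comparison, the 12 genes fixed for correlation (1 of them is not reported here) and clock genes called. Further members named were picked with their values in view. The members and the gene lists were chosen with earlier results of these data known. Of 296 list entries, 293 matched the table. Promoters came from RefSeq on GRCr8, and all 3 genes looked up were matched.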

Additional observations from a re-analysis of the deposited data

Results flagged for a closer look

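In Dixon's test of the highest and lowest library of each group, over 48 group values of Slc17a7 and 11 genes fixed for correlation, 17 values stood far from the rest of their group, where chance gives about 1 in 20 (5%). Of these, 12 were in the 5 libraries above 20 RPM, which were chosen on Slc17a7. For Slc17a7 itself these were TG naive 190 at 55.8 RPM and TG crush 220 at 63.3 RPM, and these 2 follow from that choice. The genes were fixed with earlier results known, so the number of such values is not read against chance. The wt naive group, with 3 of its 8 libraries high, gave no such flag for Slc17a7.

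Tbr1 stood out in wt naive 202 (3.76 RPM), TG naive 190 (4.50 RPM) and TG crush 220 (2.84 RPM). Neurod2 did so in TG naive 190 (2.02 RPM) and TG crush 220 (2.16 RPM), and Neurod6 in the same libraries at 4.13 RPM and 4.48 RPM. Nrn1 was far above its group in wt naive 202 (8.02 RPM), TG naive 190 (8.23 RPM) and TG crush 220 (8.59 RPM).

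The other 5 were among the 23 libraries. Camk2a was low in wt crush 210 (687 RPM) and Slc17a6 high in wt crush 207 (1.25 RPM). Mbp was high in wt naive 201 (20450 RPM) and TG naive 192 (16749 RPM), and Gfap was high in wt naive 201 (1531 RPM).

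The crush effect on Nr1d2, a clock repressor, was larger in TG than in wt rats by 0.48 on the log2 scale in limma's interaction test, with the loss of that call without the 5 libraries given above.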

How the results depend on the processing

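No paired analysis was possible because each library has a number of its own that no other group shares. Rescaling moved the median difference between the 5 and the 23 libraries by -0.03 (median of ratios) or -0.04 (quantile normalization), with 35 and 32 of the 48 separated genes kept. The count of genes higher by at least 1 was 86 with a pseudocount of 0.1 RPM, 20 with a minimum mean of 5 RPM and 16 on log2(RPKM + 0.1), and 37 to 58 without 1 of the 5 libraries. The count lower by at least 1 was 31 with that pseudocount, 5 with a pseudocount of 1 RPM, 5 with the minimum of 5 RPM and 5 with a threshold of 10 RPM for Slc17a7, and 5 to 19 without 1 library. Genes higher in each of the 5 numbered 25 with a threshold of 40 RPM, 22 with the minimum of 5 RPM, 16 on RPKM and 43 to 77 without 1 library, and genes lower numbered 1 with the threshold of 10 RPM and 5 to 9 without 1 library. Without 1 library these counts of genes apart could only stay or rise. With the minimum mean set on the 23 libraries alone, a choice made after seeing the data, 37 and 10 passed the difference of 1 and 39 and 5 were apart. The causes were not tested, except that a higher minimum leaves fewer genes.

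Calls between genotypes numbered 2 in naive rats without the 5 libraries and 2 to 7 without single libraries. In crush rats they numbered 2 without the 5, with a pseudocount of 0.1 RPM, with quantile normalization, on RPKM and in limma-voom, and 1 to 6 without single libraries. Crush calls in wt rats numbered 7 without the 5, 15 with the indicator, 48 with the minimum of 5 RPM and 12 to 517 without single libraries. Their split of 7 higher and 21 lower became 12 and 18 under median-of-ratios scaling and 11 and 17 under quantile normalization. Crush calls in TG rats numbered 181 without the 5, 371 with no minimum and 235 to 1247 without single libraries. The interaction had 0 without the 5 and 1 to 5 without single libraries. The log2 differences of Slc17a7 between groups, which are not tested, were by construction smaller without the 5, at 0.92 between genotypes in crush rats and -0.71 between crush and naive wt rats. Ppp1r1b passed at -0.485 under median-of-ratios scaling and -0.507 without centring, and Mbp at 0.483 without centring. No called direction reversed in the settings run.

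Depth limits the genes under 1 RPM most, and the pseudocount sets the size of their differences: Neurod6 was 2.64 with a pseudocount of 0.1 RPM and 1.58 with 1 RPM, and Neurod2 2.37 and 1.09.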
